A study of Mus musculus with 52 samples.

Results

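The comparison is between whole cerebral cortex and whole choroid plexus of adult male WT mice, as 4 RNA-seq libraries, 2 per tissue, out of the 52 samples of the study. The libraries were chosen by their labels alone: each is the input fraction of a RiboTag experiment, which is total RNA set aside from a tissue homogenate before the tagged ribosomes were captured. The WT mice were RiboTag; Pdgfb-CreER, which means that they carried an Rpl22 allele that gains an epitope tag after Cre recombination and a tamoxifen-inducible Cre that is active in vascular endothelial cells (ECs), and per the study's methods they had received 4-hydroxytamoxifen. Choroid plexi of several animals made up each choroid plexus sample, and the study's methods call the 2 libraries of a tissue biological replicates. The ventricle of origin is not given in the sources used here. The other 4 input libraries came from mice that carried BcatEx3fl in addition (RiboTag; Pdgfb-CreER; BcatEx3fl), an allele from which Cre makes a stabilized beta-catenin in ECs. These stabilized libraries, also 2 per tissue, are given beside the WT values because they hold the same 2 tissues in other samples. For EC genes the comparison is not the same, because the study reports that stabilization partly converts choroid plexus ECs toward a barrier-type program. The stabilized libraries also entered the fit from which the WT differences come. With the 4 WT libraries alone 3575 genes were called higher in choroid plexus and 3817 higher in cortex.

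The choroid plexus is a fronded tissue inside the brain ventricles that makes cerebrospinal fluid (CSF). A single layer of cuboidal epithelial cells, joined by tight junctions and derived from the neural tube, surrounds a core of fibroblasts, macrophages and fenestrated capillaries, and ion pumps, carbonic anhydrases and aquaporins drive salt and water across that layer. The cerebral cortex holds neurons, astrocytes, oligodendrocytes, microglia and capillaries whose ECs form the blood-brain barrier.

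Values are given as normalized RPKM, which is the estimated number of reads of a gene divided by the length of its transcript and by the size of the library after TMM scaling, in the usual unit of reads per kilobase per 1000000 reads. Replicate 1 is given first wherever a sentence gives both replicates. A log2 difference is choroid plexus minus cortex in edgeR's quasi-likelihood fit to all 8 input libraries, so that a positive value is higher in choroid plexus. A gene is called when its Benjamini-Hochberg adjusted p is under 0.05 and the difference is at least 2-fold. The 4 WT libraries held 21211999 and 21193148 estimated reads for cortex and 8668205 and 10968145 for choroid plexus, and the stabilized libraries held between 7771798 and 11688829.

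The WT cortex libraries stood apart from the other 6 input libraries in a way that tissue does not account for. In cortex, 3463 of 14240 protein-coding genes differed between stabilized and WT libraries at an adjusted p under 0.05 without a minimum fold, whereas 17 did in choroid plexus. The correlation of log values was 0.97 between the WT cortex replicates and 0.97 between the stabilized cortex replicates, but between 0.92 and 0.94 across the genotypes. Gm23935, which is not a protein-coding gene, held between 0.123% and 0.160% of the deposited TPM in the WT cortex libraries and between 31.0% and 50.0% in the other 6. Another gene, Gm42418, held between 2.67% and 3.64% of estimated reads in the WT cortex libraries and between 7.01% and 18.0% in the other 6. Genes with short transcripts were affected most: among the 104 tested genes of up to 500 bases the median log2 difference between the tissues was 2.82 in WT and 0.54 in the stabilized libraries, and among the 3867 genes over 4000 bases it was -0.44 in WT and -0.18 in the stabilized libraries. Library preparation and genotype cannot be told apart in cortex. Counts of the main gene lists in the stabilized libraries, and stabilized values of many of the genes, are therefore given beside those of WT, from the same fit to all 8 libraries.

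**Figure D1:**
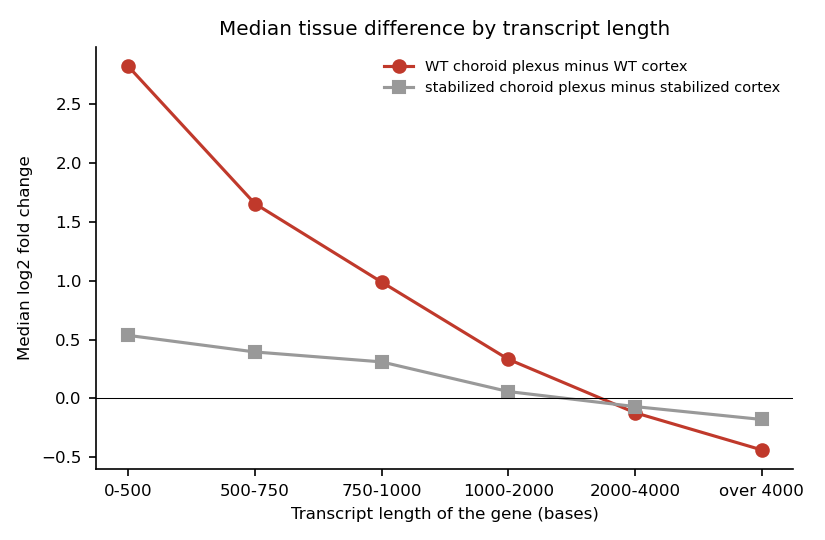
Median log2 difference between choroid plexus and cortex (y axis) of tested protein-coding genes in 6 bins of transcript length in bases (x axis), for the WT (red circles) and the stabilized (gray squares) libraries. The WT median falls from 2.82 in the shortest bin to -0.44 in the longest, and the stabilized median from 0.54 to -0.18.

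The WT tissues differed at 7480 of the 14240 tested protein-coding genes. Of these, 3690 (25.9%) were called higher in choroid plexus and 3790 (26.6%) higher in cortex, with a median log2 difference of -0.01 over all tested genes. At 8-fold or more there were 1278 (8.97%) and 1840 (12.9%). In the stabilized libraries 3029 genes (21.3%) were called higher in choroid plexus and 3369 (23.7%) higher in cortex, and at 8-fold or more 955 (6.71%) and 1654 (11.6%). The 2-fold shares of each genotype are the background of every list count that follows, also where they are not repeated. Of the 7480 genes called in WT, 5514 were called in the same direction in the stabilized libraries, 7228 had the same sign, and 17 were called in the opposite direction. Of the 3118 WT genes at 8-fold or more, 2825 were called in the same direction and 6 in the opposite one. The test of the difference between the genotypes called 702 genes (4.93%) as more toward choroid plexus in WT and 315 (2.21%) as more toward cortex in WT. Those counts were 388 and 153 without WT choroid plexus replicate 1 and 442 and 152 without replicate 2. The balance of the calls depended on the scaling: with library sizes alone, which moved the median of all genes to -0.47, 2776 genes were higher in choroid plexus and 4997 higher in cortex, and on the deposited TPM values with a pseudocount of 1 in limma, where the median was -1.32, the split was 766 to 8267 and 15 of the 155 genes named here changed sign.

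**Figure D2:**
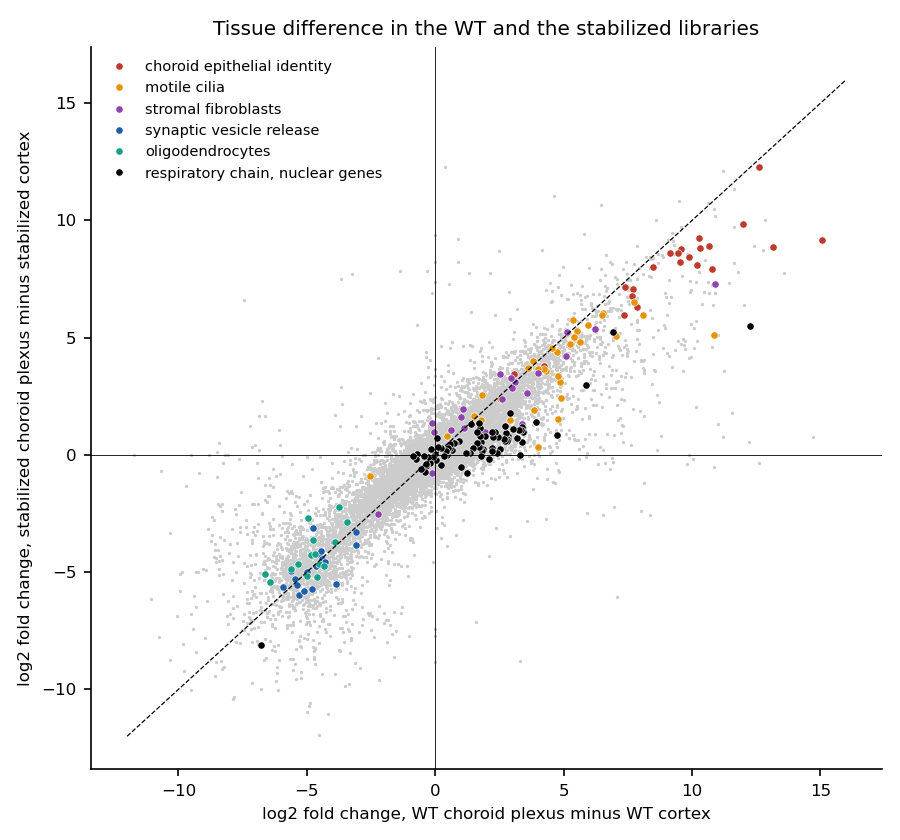
Log2 difference between choroid plexus and cortex of each tested protein-coding gene in the WT (x axis) and the stabilized (y axis) libraries, with members of 6 gene lists in color and equal values on the dashed line. Choroid epithelial genes lie at the upper right and synaptic and oligodendrocyte genes at the lower left in both, whereas respiratory chain genes are displaced along the WT axis with a WT median of 1.69 against 0.35.

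Genes known for the choroid epithelium were among the 12 largest called differences toward choroid plexus at 10 TPM or more in both replicates. Ttr, which encodes the thyroxine and retinol carrier transthyretin and lies at GRCm38 chr18:20665280-20674321, measured 108488 and 115552 RPKM in choroid plexus and 4.21 and 2.31 in cortex, a log2 difference of 15.07 ± 1.50 (SE, adjusted p = 5.89e-05). Ttr took 11.3% and 12.2% of all estimated reads of the WT choroid plexus libraries. In the stabilized libraries the log2 difference of Ttr was 9.17, with cortex values of 25 and 313 that lay far apart. Slc4a5, an electrogenic sodium bicarbonate cotransporter of the choroid epithelium (chr6:83219828-83304945), measured 165 and 174 RPKM against 0.0174 and 0.0164 in cortex, a log2 difference of 13.14 ± 0.43 (SE, adjusted p = 6.55e-07) and of 8.88 in the stabilized libraries. Kcne2, an accessory subunit of potassium channels, measured 359 and 367 RPKM against 0 and 0.162, a log2 difference of 12.00 ± 0.77 (SE, adjusted p = 6.35e-06). For 5 further genes the WT cortex libraries held no read at all, so that only a lower bound can be given, computed against 3 reads over the 2 cortex libraries. The metal reductase gene Steap1 was at least 985-fold higher in choroid plexus, Wdr86 at least 1902-fold, Prr32 at least 1159-fold, the muscle-type cytochrome oxidase subunit Cox8b at least 753-fold and the beta-defensin Defb11 at least 490.2-fold. Stabilized cortex also held no read of Steap1 or Defb11, whereas Wdr86 measured 0.154 and 0.259 RPKM there and Cox8b 2.38 and 3.1. Rpl10-ps3, Rps27rt, Dynlt1a and Plac9b, which are not known as epithelial products, also had 0 reads in WT cortex. In stabilized cortex they measured 207 and 145, 83.7 and 52.5, 6.82 and 7.98 and 2.6 and 3.01 RPKM. They have near-identical copies, and whether reads were shared with these was not tested. The size of their WT differences is uncertain, as it is for Wdr86 and Cox8b. The same holds for Pagr1a, which had 0 reads in WT choroid plexus.

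Under the same minimum of 10 TPM, genes known for neurons were among the 12 largest called differences toward cortex. Gap43, a growth cone and presynaptic protein, measured 170.2 and 148 RPKM in cortex and 1.39 and 0.665 in choroid plexus, a log2 difference of -7.32 ± 0.36 (SE, adjusted p = 2.05e-06). Slc17a6, the vesicular glutamate transporter VGLUT2, measured 26.7 and 27.1 RPKM against 0.276 and 0.0536, a log2 difference of -7.45 ± 0.95 (SE, adjusted p = 0.000223). Cnr1, the cannabinoid receptor of presynaptic terminals, measured 30.9 and 36.9 RPKM against 0.164 and 0.272, a log2 difference of -7.23 ± 0.50 (SE, adjusted p = 9.22e-06). The kainate receptor subunit Grik2 had a log2 difference of -7.21, the RNA-binding protein Elavl2 of -7.18, Nrip3 of -6.98, the GABA transporter Slc6a11, which astrocytes also use, of -6.84, the receptor tyrosine kinase Ephb1 of -6.83 and the small GTPase Diras1 of -6.80. Each of these 9 genes was also called higher in cortex in the stabilized libraries, between -4.63 for Slc17a6 and -7.15 for Gap43. Plcxd3 and the synaptic gene Syndig1l had 1 and 3 reads in the 2 choroid plexus libraries together, and were 275-fold (95% counting interval 49.2 to 10873) and 153-fold (52.3 to 744) higher in cortex.

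The list of choroid epithelial identity genes set the tissues apart without exception. All 22 members were called higher in WT choroid plexus, 22 of them at 8-fold or more, and all were called in the stabilized libraries too. The median log2 difference was 9.56 in WT and 8.32 in the stabilized libraries, beside -0.01 and -0.02 over all tested genes. The summed level of the list was 87.6 and 83.7 RPKM in the WT cortex libraries and 122915 and 131042 in the WT choroid plexus libraries. Enpp2, which encodes the secreted lysophospholipase autotaxin, measured 8764 and 9792 RPKM in choroid plexus and 57.3 and 53.4 in cortex, a log2 difference of 7.39 ± 0.26 (SE, adjusted p = 7.83e-07). Enpp2 had the smallest shift between the genotypes among the 5 most abundant members, with 7.17 in the stabilized libraries. Folr1, the folate receptor that carries folate into CSF, measured 689 and 721 RPKM against 0.434 and 0.41, a log2 difference of 10.67 ± 0.40 (SE, adjusted p = 9.16e-07). Igfbp2, a secreted insulin-like growth factor binding protein, measured 760.1 and 720.1 RPKM against 5.51 and 3.56, a log2 difference of 7.35 ± 0.25 (SE, adjusted p = 7.3e-07). Kcnj13, the inward rectifier potassium channel of the apical membrane, measured 283 and 304 RPKM against 0 and 0.75, a log2 difference of 9.55 ± 0.76 (SE, adjusted p = 1.75e-05). Kl, which encodes klotho, a co-receptor for a fibroblast growth factor, named after its values were seen, measured 380.4 and 369 RPKM against 0.436 and 0.885, a log2 difference of 9.14 ± 0.66 (SE, adjusted p = 1.09e-05). In a whole-tissue library fewer cells of a type and less RNA per cell cannot be told apart, here or for any gene that follows.

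**Figure D3:**
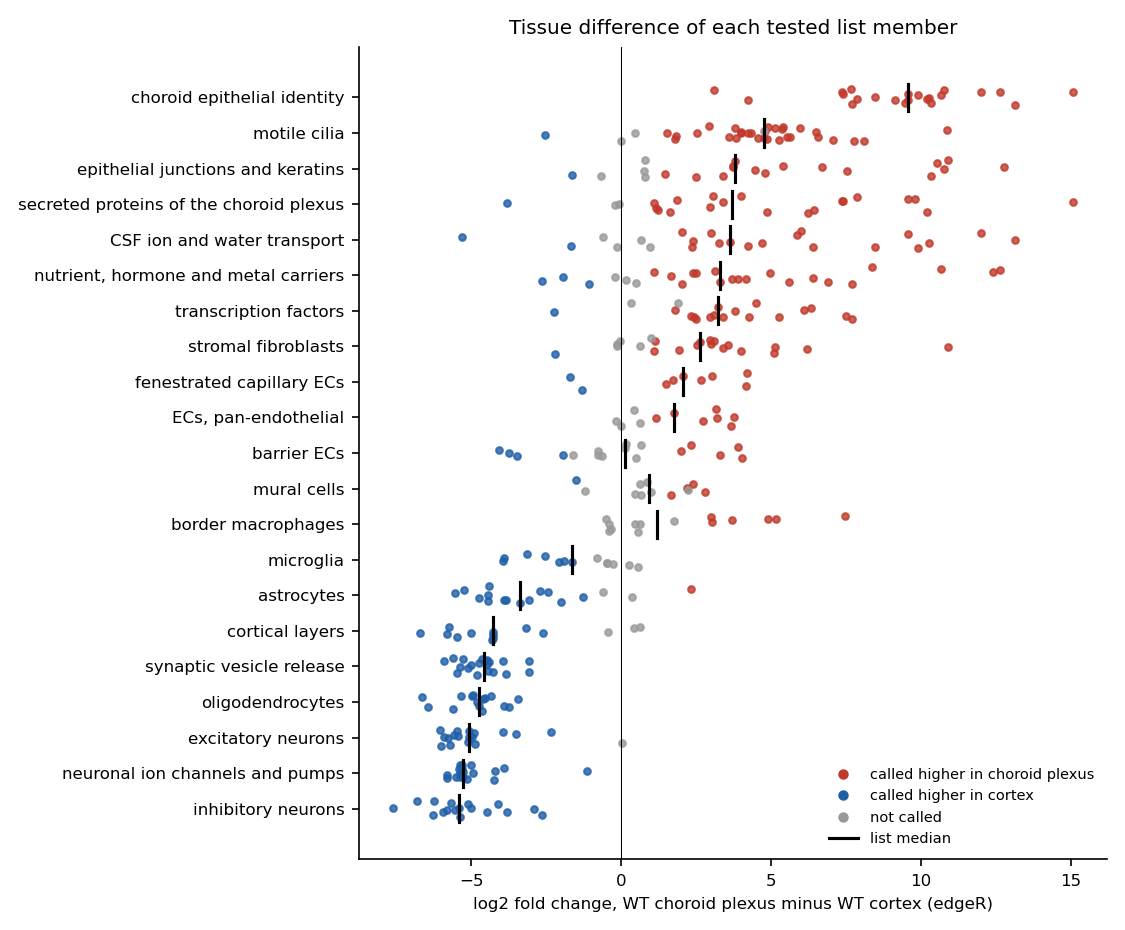
Log2 difference between WT choroid plexus and WT cortex (x axis) of every tested member of 21 gene lists (rows), with called members in red or blue, other members in gray and the list median as a black bar. The medians run from 9.56 for choroid epithelial identity to -5.42 for inhibitory neurons, and barrier EC genes spread to both sides around 0.14. With genes without reads in a group taken at their bound, the median of inhibitory neurons is -5.12.

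The machinery that moves ions and water into CSF was higher in choroid plexus. Of 23 tested genes of this list, 17 were called higher in choroid plexus and 2 higher in cortex, beside 25.9% and 26.6% of all tested genes. The medians were 3.61 in WT and 3.77 in the stabilized libraries, where the counts were 18 and 2. Among the members higher in cortex, the neuronal potassium channel Kcna1, named after its values were seen, had a log2 difference of -5.32. Within gene families the tissues used different members. Aqp1, the water channel of the apical choroid membrane, measured 75.3 and 84.6 RPKM in choroid plexus and 0.126 and 0 in cortex, a log2 difference of 10.27 ± 0.67 (SE, adjusted p = 6.65e-06). Aqp4, the water channel of astrocyte endfeet, ran the other way, with 20.4 and 21.8 RPKM in cortex and 1.98 and 2.03 in choroid plexus, a log2 difference of -3.40 ± 0.37 (SE, adjusted p = 9.46e-05). The intracellular aquaporin gene Aqp11 lay between 2.39 and 3.68 RPKM in the 4 WT libraries, with overlapping tissues and a log2 difference of -0.22, but it was called higher in cortex on the deposited TPM scale (-1.62).

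Bicarbonate and chloride carriers showed the same exchange of family members. Slc4a2, the basolateral chloride-bicarbonate exchanger AE2, measured 270.3 and 252 RPKM in choroid plexus and 4.97 and 4.06 in cortex, a log2 difference of 5.85 ± 0.18 (SE, adjusted p = 5.64e-07). Slc4a10, a sodium-dependent bicarbonate carrier that neurons use as well, measured 188 and 197 RPKM against 34.8 and 39.5, a log2 difference of 2.37 ± 0.18 (SE, adjusted p = 1.25e-05), which was -0.016 on the deposited TPM scale. Slc4a4, the sodium bicarbonate cotransporter of astrocytes, measured 32 and 36.3 RPKM in cortex and 1.8 and 1.38 in choroid plexus, a log2 difference of -4.43 ± 0.42 (SE, adjusted p = 4.47e-05). Slc4a3 and Slc4a8 were also called higher in cortex (-1.99 and -2.33). Among the cation-chloride cotransporters, Slc12a2 (NKCC1), which carries sodium, potassium and chloride, measured 132 and 150.5 RPKM in choroid plexus and 14.7 and 14.5 in cortex, a log2 difference of 3.28 ± 0.13 (SE, adjusted p = 1.05e-06). The potassium-chloride cotransporters split: Slc12a4 (KCC1) was higher in choroid plexus by 3.61 and Slc12a7 (KCC4) by 4.69 (0.39 and no call on the deposited TPM scale), whereas the neuronal Slc12a5 (KCC2) had a log2 difference of -4.26. All of these calls of Slc4 and Slc12 genes were made in the same direction in the stabilized libraries.

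Carbonic anhydrases, which supply the bicarbonate, were called higher in choroid plexus in 4 and higher in cortex in 3 of 10 tested, beside 25.9% and 26.6% of all tested genes. Car12 measured 187 and 170.0 RPKM in choroid plexus and 2.65 and 1.58 in cortex, a log2 difference of 6.40 ± 0.28 (SE, adjusted p = 1.39e-06). Car2, the abundant cytosolic enzyme, measured 152 and 159.6 RPKM against 33.6 and 25.1, and Car14 77.2 and 81.7 against 4.63 and 3.83. The log2 difference of Car2 was 2.41 in WT, 1.13 in the stabilized libraries and -0.24 on the deposited TPM scale, and that of Car14 was 4.23 and 3.78. The enzyme-inactive relative Car11 was called higher in cortex (-3.68) but had a difference of 0.60 with an offset for effective transcript length, and also called was the membrane-anchored Car4 (-2.74), whose difference in the stabilized libraries was -0.98.

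Of the beta and regulatory subunits of the sodium pump, which powers CSF secretion, those of the FXYD family differed most between the tissues. Among the beta subunits, the log2 differences were -0.61 for Atp1b1, -1.28 for Atp1b2 and 0.93 for Atp1b3 (0.19 for Atp1b1 with an offset for effective length, but -1.06 and called with library sizes alone and -1.79 and called on the deposited TPM scale, and -1.45 for Atp1b3 on the deposited TPM scale), and of these the difference of Atp1b2 alone was called, with -0.54 and no call under the offset for effective length. In the stabilized libraries Atp1b3 was called (1.48) and Atp1b2 was not (-0.99). Fxyd1 (phospholemman) measured 731 and 721 RPKM in choroid plexus and 12.2 and 10.3 in cortex, a log2 difference of 6.01 ± 0.18 (SE, adjusted p = 5.56e-07), and the neuronal Fxyd6 and Fxyd7 had log2 differences of -4.53 and -4.23. In the inward rectifier potassium channel family Kcnj13 was higher in choroid plexus, while 8 of 10 tested members were called higher in cortex, from -3.09 for Kcnj11 to -5.88 for Kcnj4, beside 26.6% of all tested genes. Kcnj10, the channel of astrocytes, had the highest cortex level of the family at 64.6 and 71.5 RPKM.

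**Figure D4:**
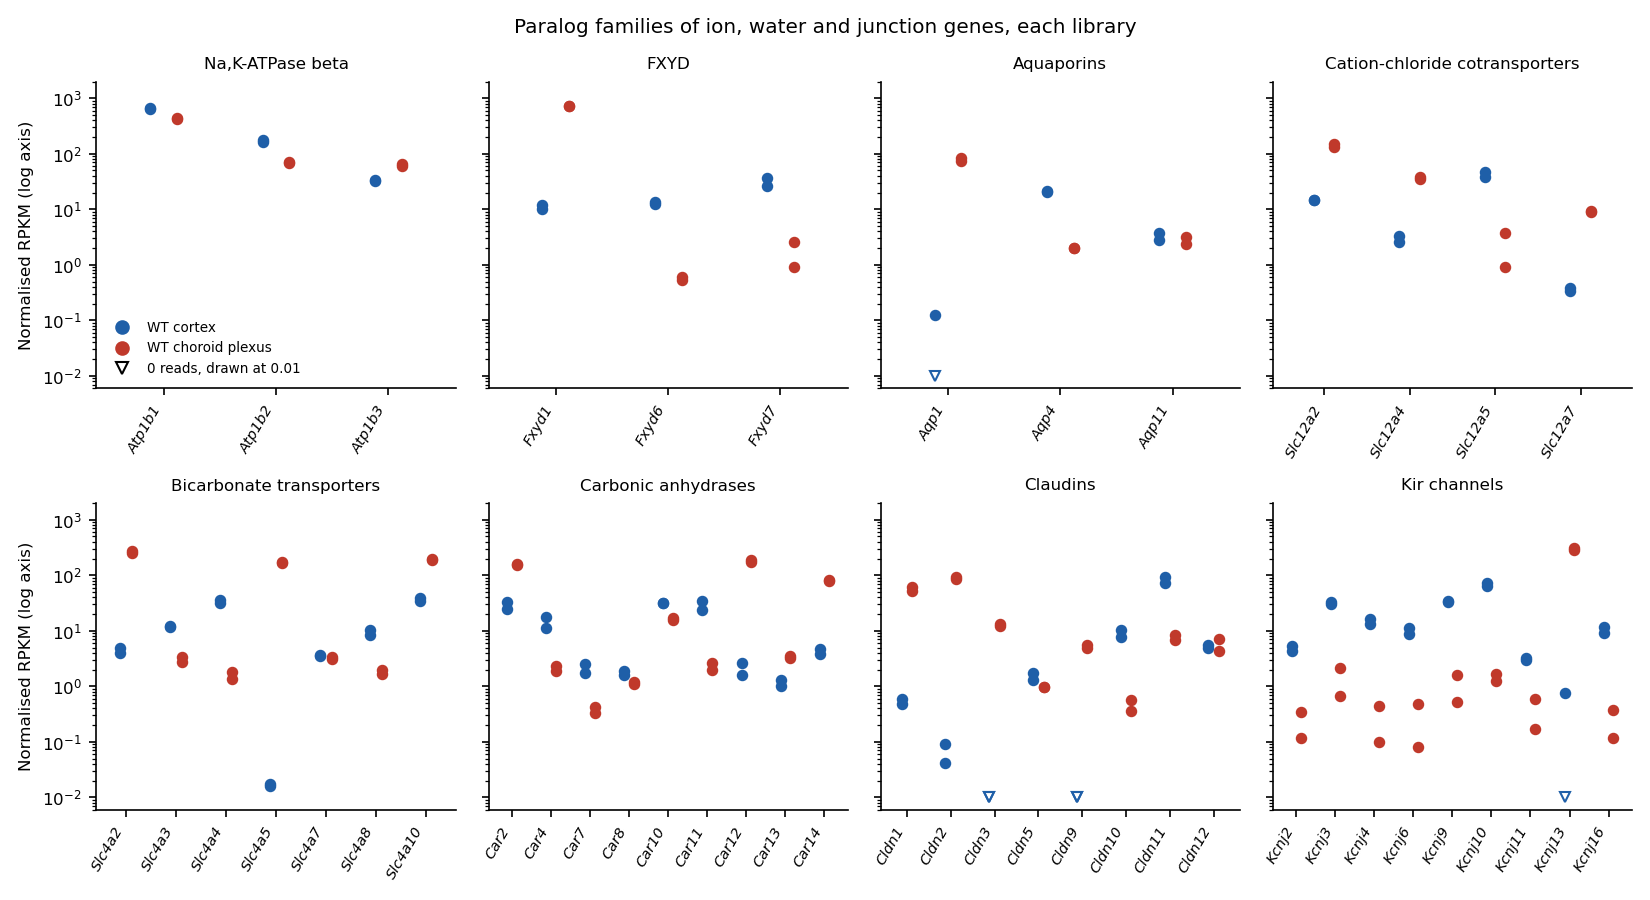
Normalized RPKM (y axis, log scale) in each WT cortex (blue) and WT choroid plexus (red) library for members of 8 groups of related genes (x axis), with open triangles for libraries with 0 reads. The tissues separate by member: Aqp1, Slc4a2, Slc12a2, Car12, Cldn2 and Kcnj13 are high in choroid plexus, and Aqp4, Slc4a4, Slc12a5, Car11, Cldn11 and Kcnj10 in cortex.

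Tight junction and keratin genes marked the epithelium. Of 21 tested genes 16 were called higher in choroid plexus and 1 higher in cortex, beside 25.9% and 26.6% of all tested genes. The medians were 3.79 in WT and 4.21 in the stabilized libraries, where the counts were 15 and 0. Cldn2, the claudin that forms cation and water pores, measured 85.4 and 91.8 RPKM in choroid plexus and 0.0409 and 0.0901 in cortex, a log2 difference of 10.32 ± 0.45 (SE, adjusted p = 1.32e-06). Cldn1, a sealing claudin, measured 51.2 and 61.3 RPKM against 0.471 and 0.601, a log2 difference of 6.70 ± 0.29 (SE, adjusted p = 1.34e-06). Cldn3 and Cldn9 had no read in WT cortex and were at least 267-fold and 124-fold higher in WT choroid plexus. Stabilized cortex held 0.226 and 0.38 RPKM of Cldn3, against 8.15 and 6.96 in stabilized choroid plexus. For Cldn9 the stabilized values were 0.397 and 0.111 RPKM in cortex, against 2.36 and 3.78 in choroid plexus. Both genes were called higher in stabilized choroid plexus too, but by less than the WT bounds. The size of their WT differences is therefore uncertain. Claudins of other cells went the other way: Cldn11, the claudin of myelin, had a log2 difference of -3.43, and Cldn10 of -4.23. Ezr, the membrane-cytoskeleton linker ezrin of microvilli, measured 283 and 263 RPKM against 21.2 and 19.6, a log2 difference of 3.74 ± 0.27 (SE, adjusted p = 1.11e-05). Tjp1, the scaffold ZO-1 that many cell types use, had a difference of -0.66 and was not called, but was called higher in cortex with library sizes alone (-1.12), with an offset for effective length (-1.36) and on the deposited TPM scale (-3.10). The keratin genes Krt8 and Krt18, named after their values were seen, measured 33.8 and 33 and 95.8 and 88.4 RPKM in choroid plexus and 0 and 0 and 0 and 0.0815 in cortex. The member higher in WT cortex was Prom1 (-1.64), which encodes a protein of membrane protrusions and had a difference of 1.24 in the stabilized libraries.

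Carriers of nutrients, vitamins, hormones and metals were mostly higher in choroid plexus, 19 of 25 tested, against 3 higher in cortex, beside 25.9% and 26.6% of all tested genes. The medians were 3.31 in WT and 2.65 in the stabilized libraries, where the counts were 20 and 1. Slco1c1, a transporter of thyroid hormone, measured 115 and 118 RPKM in choroid plexus and 12.7 and 10.9 in cortex, a log2 difference of 3.31 ± 0.17 (SE, adjusted p = 2.45e-06), which was 0.29 and not called on the deposited TPM scale. Slc23a2, a sodium-dependent vitamin C transporter, measured 50.7 and 53.6 RPKM against 22.8 and 25.8, a log2 difference of 1.10 ± 0.12 (SE, adjusted p = 0.000104) that was 0.64 and under the 2-fold rule with library sizes alone and 0.84 on the deposited TPM scale. The glucose transporter Slc2a1 (GLUT1), which both barrier ECs and the choroid epithelium use, measured 25.2 and 26.1 RPKM against 20.6 and 15.6 and was not called (0.50 ± 0.15 (SE, adjusted p = 0.0167)), with -0.82 under an offset for effective length and -2.61 on the deposited TPM scale. The members higher in cortex, named after their values were seen, were the iron exporter Slc40a1 (-2.63), the transferrin receptor Tfrc (-1.93) and the peptide transporter Slc15a2 (-1.06, and -0.89 without WT choroid plexus replicate 1, under the 2-fold rule). Of these, Tfrc was called higher in cortex in the stabilized libraries too.

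Secreted proteins of the choroid plexus were higher there in 19 of 22 tested genes, with 1 higher in cortex and medians of 3.70 in WT and 3.21 in the stabilized libraries, where the counts were 17 and 1. Clu, which encodes the chaperone apolipoprotein clusterin, measured 1453 and 1521 RPKM in choroid plexus and 197 and 183 in cortex, a log2 difference of 2.97 ± 0.13 (SE, adjusted p = 1.24e-06). Cst3, the protease inhibitor cystatin C, was abundant in both tissues, with 1167 and 1059.8 RPKM against 542 and 507 and a log2 difference of 1.09 ± 0.14 (SE, adjusted p = 0.000208), which was -0.39 with an offset for effective length and -2.37 on the deposited TPM scale. Ptgds, a prostaglandin synthase of the leptomeninges and of oligodendrocytes, measured 1261 and 1220.3 RPKM against 391 and 419 in the WT libraries, a log2 difference of 1.62 ± 0.13 (SE, adjusted p = 2e-05), but 1122 and 1210.3 against 1356 and 1147 in the stabilized libraries, a difference of -0.10, and the WT difference was -0.26 on the deposited TPM scale and was 0.17 and not called with an offset for the length trend of each library. Igf2, a growth factor of the choroid plexus and its stroma, named after its values were seen, measured 983 and 750.4 RPKM against 10.2 and 9.82, a log2 difference of 6.44 ± 0.19 (SE, adjusted p = 5.56e-07). Fgf1, which was the member higher in cortex, had a difference of -3.83 in WT and -3.51 in the stabilized libraries.

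Genes of motile cilia, which adult choroid epithelial cells carry in tufts on the apical surface, were higher in choroid plexus. Of 34 tested genes, 30 were called higher in choroid plexus and 1 higher in cortex, with medians of 4.76 in WT (4.66 with genes without reads in a group taken at their bound) and 3.68 in the stabilized libraries, where the counts were 28 and 0. Foxj1, the transcription factor that directs motile ciliogenesis, measured 41.1 and 36.1 RPKM in choroid plexus and 2.93 and 2.65 in cortex, a log2 difference of 3.79 ± 0.26 (SE, adjusted p = 8.89e-06). The radial spoke genes Rsph1 and Rsph9 measured 107 and 98 and 68.2 and 70.3 RPKM in choroid plexus and 5.58 and 3.12 and 1.42 and 3.51 in cortex. Dynlrb2, a light chain of dynein, measured 64.3 and 73 RPKM against 0.794 and 0.225, a log2 difference of 7.05 ± 0.44 (SE, adjusted p = 5.79e-06). Cfap126, which encodes a protein of basal bodies and cilia, measured 66.9 and 77.7 RPKM against 0.0548 and 0, where a single read in the WT cortex libraries gives a ratio of 2744 (95% counting interval 491 to 108482), and its log2 difference in the stabilized libraries was 5.10. The member called higher in WT cortex was the outer dynein arm heavy chain Dnah5 (-2.55), at 0.307 and 0.447 RPKM in cortex and 0.0521 and 0.0741 in choroid plexus, and it was not called in the stabilized libraries (-0.90).

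The promoters of 3 cilia genes are printed because a short sequence was more frequent close to the start sites of the motile cilia genes than of all tested genes, although 21 of their 29 windows lack it. The sequence searched was GTTGCCA, part of the X-box that RFX factors bind, on both strands of the 300 bases from 250 before to 50 after each start site in RefSeq (GRCm38.p6). It was present in 8 of the 29 motile cilia genes with a window (27.6%) and in 531 of the 11055 tested genes with a window (4.80%). The 3 genes were chosen after the search for a match that starts between 15 and 12 bases before the start site and for their level: the tektin gene Tekt1 (chr11:72361833-72362132, - strand, match at -15), Pifo (chr3:106001448-106001747, - strand, match at -13) and the nexin-dynein regulatory gene Drc1 (chr5:30281143-30281442, + strand, match at -12). Each is written 5' to 3' on the strand of its gene, with the match in capitals, which reads TGGCAAC where it lies on the opposite strand.
Tekt1: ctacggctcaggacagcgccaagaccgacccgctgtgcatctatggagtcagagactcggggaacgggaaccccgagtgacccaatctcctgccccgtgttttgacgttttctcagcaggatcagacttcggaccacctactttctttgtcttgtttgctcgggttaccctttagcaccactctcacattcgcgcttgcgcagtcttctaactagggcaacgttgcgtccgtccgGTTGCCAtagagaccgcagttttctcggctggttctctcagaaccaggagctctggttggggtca
Pifo: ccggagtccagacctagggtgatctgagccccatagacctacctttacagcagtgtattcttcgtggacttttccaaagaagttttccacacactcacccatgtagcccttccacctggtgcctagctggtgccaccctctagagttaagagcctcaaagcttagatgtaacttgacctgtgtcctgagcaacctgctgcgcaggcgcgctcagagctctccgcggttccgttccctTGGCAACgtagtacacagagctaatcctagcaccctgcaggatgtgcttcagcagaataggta
Drc1: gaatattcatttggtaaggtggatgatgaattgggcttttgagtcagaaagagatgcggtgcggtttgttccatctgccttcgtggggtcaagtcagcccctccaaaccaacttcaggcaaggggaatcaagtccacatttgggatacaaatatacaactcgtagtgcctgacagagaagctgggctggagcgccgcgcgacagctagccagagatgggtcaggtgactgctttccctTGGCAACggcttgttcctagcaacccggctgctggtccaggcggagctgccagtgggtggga
Tekt1 measured 34.7 and 37.2 RPKM in choroid plexus and 0.917 and 0.643 in cortex, a log2 difference of 5.52 ± 0.25 (SE, adjusted p = 1.64e-06). Pifo, a gene of cilia disassembly, measured 25.7 and 24.5 RPKM against 0 and 0.519, a log2 difference of 6.51 ± 0.62 (SE, adjusted p = 4.69e-05). Drc1 measured 11.5 and 16.9 RPKM against 4.9 and 3.4, a log2 difference of 1.78 ± 0.26 (SE, adjusted p = 0.000445), which was 0.52 and not called on the deposited TPM scale. The match is a description of these windows and not evidence of binding. Of the RFX factors named by the rule, Rfx3 measured 12 and 12.5 RPKM in choroid plexus and 9.15 and 10.3 in cortex, a log2 difference of 0.33 ± 0.11 (SE, adjusted p = 0.0284) under the 2-fold rule, which was -0.12 with library sizes alone but passed the rule with an offset for effective length (2.15) or for the length trend (1.01). Rfx2, named after its values were seen, measured 7.88 and 6.95 RPKM in choroid plexus and 0.528 and 0.131 in cortex, a log2 difference of 4.49 ± 0.50 (SE, adjusted p = 0.000105). The OTX site TAATCC was present in 2 of 16 choroid epithelial genes with a window (12.5%) and in 6.97% of all tested genes, and TTCAGCACC, the left part of the RE1 element, in 2 of 16 synaptic genes (12.5%), in 0 of 11 excitatory neuron, 0 of 12 inhibitory neuron and 0 of 10 channel and pump genes and in 0.552% of all tested genes.

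Transcription factors of the dorsal midline and of ciliated cells were higher in choroid plexus in 16 of 19 tested genes, with 1 higher in cortex and medians of 3.23 in WT and 3.13 in the stabilized libraries, where the counts were 15 and 1. Otx2, the homeobox factor that specifies and maintains choroid epithelium (chr14:48657677-48673819), measured 92.2 and 112 RPKM in choroid plexus and 0.381 and 0.58 in cortex, a log2 difference of 7.71 ± 0.22 (SE, adjusted p = 5.56e-07). Msx1, a homeobox target of BMP signaling at the dorsal midline, measured 109.6 and 95.8 RPKM against 0.556 and 0.565, a log2 difference of 7.50 ± 0.18 (SE, adjusted p = 5.2e-07). Id3, another BMP target, measured 60.6 and 59.6 RPKM against 10.2 and 12.1, a log2 difference of 2.43 ± 0.13 (SE, adjusted p = 3.25e-06), which was 0.61 and under the 2-fold rule on the deposited TPM scale. Sox9, which is used as an astrocyte marker in cortex, was higher in choroid plexus, at 39.4 and 40.3 RPKM against 7.99 and 7.78, a log2 difference of 2.34 ± 0.12 (SE, adjusted p = 2.9e-06), which was 0.66 and under the 2-fold rule on the deposited TPM scale. The member higher in cortex was Pax6 (-2.24, and -1.33 without a call under the offset for effective length). Forebrain position genes went the other way. In WT 7 of 10 tested were called higher in cortex and 0 in choroid plexus, beside 26.6% and 25.9% of all tested genes. In the stabilized libraries the counts were 5 and 1, beside 23.7% and 21.3%. Lhx2, a factor that opposes choroid plexus fate, had a log2 difference of -4.07. Of 12 hindbrain position genes 5 could be tested and 3 were called higher in WT choroid plexus, beside 25.9% of all tested genes. But none was called in the stabilized libraries, beside 21.3% of all tested genes. The 3 did not pass the filter on low counts when the 4 WT libraries were fitted alone. The called genes had few reads, as for Hoxb3 and Hoxb4, which had 0 reads in WT cortex, 0.426 and 0.248 and 0.159 and 0.493 RPKM in WT choroid plexus and 0.895 and 0.219 and 0.407 and 0.0933 RPKM in stabilized cortex, and Hoxb4 lost its call without WT choroid plexus replicate 2 (adjusted p = 0.0546).

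The stroma, immune cells and vessels of the choroid plexus were visible beside the epithelium. Fibroblast genes were called higher in choroid plexus in 15 of 21 tested and higher in cortex in 1, beside 25.9% and 26.6% of all tested genes. The medians were 2.62 in WT and 2.41 in the stabilized libraries, where the counts were 17 and 1. Pcolce, an enhancer of procollagen processing, measured 156 and 149.9 RPKM in choroid plexus and 2.72 and 1.41 in cortex, a log2 difference of 6.21 ± 0.29 (SE, adjusted p = 1.68e-06). Mgp, a matrix protein that inhibits calcification, measured 95.2 and 110.1 RPKM against 3.82 and 2.15, a log2 difference of 5.10 ± 0.30 (SE, adjusted p = 4.47e-06). Dcn, the collagen-binding proteoglycan decorin, measured 41.4 and 49.4 RPKM against 6.84 and 7.92, a log2 difference of 2.62 ± 0.15 (SE, adjusted p = 3.96e-06), which was -0.49 on the deposited TPM scale. The GABA and taurine transporter Slc6a13 was the member called higher in cortex (-2.21). The summed level of the fibroblast list was 449 and 463 RPKM in the WT choroid plexus libraries and 51 and 49.5 in the WT cortex libraries.

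Antigen presentation genes were higher in choroid plexus, and some genes of parenchymal microglia were higher in cortex. Of 14 tested genes of border macrophages and antigen presentation 6 were called higher in WT choroid plexus and 0 higher in cortex, beside 25.9% and 26.6% of all tested genes, with a median of 1.19 in WT and 3.17 in the stabilized libraries, where the counts were 8 and 1. Cd74, the invariant chain of MHC class II, measured 24.7 and 24.6 RPKM in choroid plexus and 2.25 and 1.6 in cortex, a log2 difference of 3.68 ± 0.30 (SE, adjusted p = 2.04e-05). The class II chains H2-Ab1 and H2-Eb1 had log2 differences of 5.15 and 3.02, and Lyz2, the lysozyme of myeloid cells, of 2.98, but H2-Eb1 and Lyz2 had 0.53 and 0.45 and no call on the deposited TPM scale. The 8 members not called in WT were genes of macrophages and other myeloid cells and none of antigen presentation. The stabilized choroid plexus libraries held 259.6 and 182 RPKM of this list in sum and the WT choroid plexus libraries 82.3 and 72.8. Of 13 microglia genes 7 were called higher in WT cortex and 0 higher in choroid plexus, beside 26.6% and 25.9% of all tested genes, with a median of -1.64. The microglia counts in the stabilized libraries were 4 and 1, beside 23.7% and 21.3% of all tested genes, with a median of -0.65. P2ry12, the purinergic receptor of homeostatic microglia, measured 11.1 and 8.33 RPKM in cortex and 0.685 and 0.585 in choroid plexus, a log2 difference of -3.94 ± 0.40 (SE, adjusted p = 6.36e-05). Csf1r, the growth factor receptor that brain macrophages depend on, differed less, with 11.7 and 10.6 RPKM against 3.37 and 3.75 and a log2 difference of -1.64 ± 0.13 (SE, adjusted p = 1.76e-05). The Csf1r difference in the stabilized libraries was -0.93 and was not called.

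Genes of ECs in general were higher in choroid plexus, and those of barrier ECs were not so as a group in WT. Of the 11 tested pan-endothelial genes 7 were called higher in WT choroid plexus and 0 higher in cortex, and 8 and 0 in the stabilized libraries, with medians of 1.74 and 1.94. The shares of all tested genes were 25.9% and 26.6% in WT and 21.3% and 23.7% in the stabilized libraries. ECs of the stabilized mice make the stabilized beta-catenin, so EC genes there are not a plain repeat of the WT comparison. Genes of fenestrated capillaries were called higher in WT choroid plexus in 7 of 9 and higher in cortex in 2, of which 1 was left without WT choroid plexus replicate 2, and in 7 and 1 in the stabilized libraries. The members of this list called higher in WT cortex were Cd34 and Rspo3. Plvap, which encodes the diaphragm protein of fenestrae, measured 19.3 and 17.1 RPKM in WT choroid plexus and 1.12 and 0.865 in WT cortex, a log2 difference of 4.19 ± 0.20 (SE, adjusted p = 1.78e-06). In the stabilized libraries Plvap measured 12.2 and 11.1 RPKM in choroid plexus and 4.16 and 3.53 in cortex, a difference of 1.60, and the test of the difference between the genotypes gave 2.59 (adjusted p = 0.00127). The phosphatase gene Plpp1 measured 45.5 and 38.5 RPKM against 8.46 and 11.6, a log2 difference of 2.07 ± 0.19 (SE, adjusted p = 4.05e-05), and Igfbp3 12.9 and 10.8 RPKM against 1.93 and 1.83, a log2 difference of 2.65 ± 0.18 (SE, adjusted p = 8.65e-06). On the deposited TPM scale the difference was -0.53 for Plpp1 and -0.069 for Igfbp3. Pecam1, a junctional adhesion protein of all ECs, stood out among these genes: it measured 1.95 and 2.72 RPKM in WT cortex but 37 and 37.2 in stabilized cortex, so that the tissue difference was 3.77 in WT and -0.22 in the stabilized libraries. Of 17 barrier EC genes 5 were called higher in WT choroid plexus and 4 higher in cortex, close to the 25.9% and 26.6% of all tested genes, and in the stabilized libraries 10 and 3, with medians of 0.14 and 1.30. Mfsd2a, the lipid transporter of barrier ECs, measured 8.67 and 5.77 RPKM in cortex and 0.799 and 0.517 in choroid plexus, a log2 difference of -3.47 ± 0.36 (SE, adjusted p = 7.02e-05). Spock2, a proteoglycan gene that neurons express as well, had a log2 difference of -4.08. The barrier claudin Cldn5 measured 1.73 and 1.3 RPKM in WT cortex and 0.96 and 0.969 in WT choroid plexus and was not called (-0.64 ± 0.31 (SE, adjusted p = 0.0963)), and in the stabilized libraries it was called higher in choroid plexus (1.47). The WT difference of Cldn5 was called higher in cortex with library sizes alone (-1.09), with the offsets for effective length (-1.36) and length trend (-1.09) and on the deposited TPM scale (-1.32). Lef1, a nuclear partner of beta-catenin, measured 12.3 and 9.57 RPKM in WT choroid plexus against 2.95 and 2.58, a log2 difference of 1.98 ± 0.18 (SE, adjusted p = 3.62e-05), which was -0.35 on the deposited TPM scale. Mural genes were called in 4 of 12 as higher in WT choroid plexus, among them Pdgfrb, the pericyte receptor for PDGF-B (2.18, and 0.34 without a call on the deposited TPM scale), and in 1 as higher in cortex, the proteoglycan Cspg4 (-1.52), which oligodendrocyte precursors express too, beside 25.9% and 26.6% of all tested genes. In the stabilized libraries the mural counts were 8 and 1, with medians of 0.92 in WT and 1.48 there.

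Neuronal genes were low in choroid plexus. All 20 synaptic vesicle genes, all 17 inhibitory neuron genes and 17 of 18 excitatory neuron genes were called higher in WT cortex, with medians of -4.59, -5.42 and -5.09. In the stabilized libraries the counts were 20, 17 and 17, with medians of -4.70, -5.66 and -4.62. With genes without reads in a group taken at their bound, the inhibitory neuron medians were -5.12 in WT and -5.40 in the stabilized libraries. Snap25, a membrane fusion protein of synaptic vesicle release, measured 1009.8 and 1022 RPKM in cortex and 46.7 and 12.1 in choroid plexus, a log2 difference of -5.11 ± 0.65 (SE, adjusted p = 0.000216). Vamp2, its partner on the vesicle, measured 509.7 and 528 RPKM against 20.9 and 17.5, a log2 difference of -4.76 ± 0.16 (SE, adjusted p = 7.18e-07). Syt1, the calcium sensor of release, measured 229 and 249.6 RPKM against 15 and 6.35, a log2 difference of -4.49 ± 0.55 (SE, adjusted p = 0.000175). Nsf, an ATPase that all membrane traffic uses, kept 15.9 and 17.1 RPKM in choroid plexus against 133 and 148, a smaller difference of -3.09. Camk2a, the kinase of excitatory synapses, measured 384 and 396 RPKM against 21.8 and 4.03, a log2 difference of -4.92 ± 0.85 (SE, adjusted p = 0.00124). The NMDA receptor subunit Grin1 had a log2 difference of -5.10 and the postsynaptic scaffold Dlg4 of -2.34. Gad1, the GABA-synthesizing enzyme, measured 82.9 and 98.7 RPKM against 2.68 and 1.28, a log2 difference of -5.55 ± 0.36 (SE, adjusted p = 6.65e-06), and the neuropeptide gene Sst had a difference of -4.12. The choroid plexus samples still held RNA of these marker genes, and WT replicate 1 held more of it than replicate 2: the summed level there was 191 and 99.9 RPKM for synaptic genes, 144 and 57.4 for excitatory and 27.8 and 8.13 for inhibitory neuron genes. The part of this RNA in the results was not tested.

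**Figure D5:**
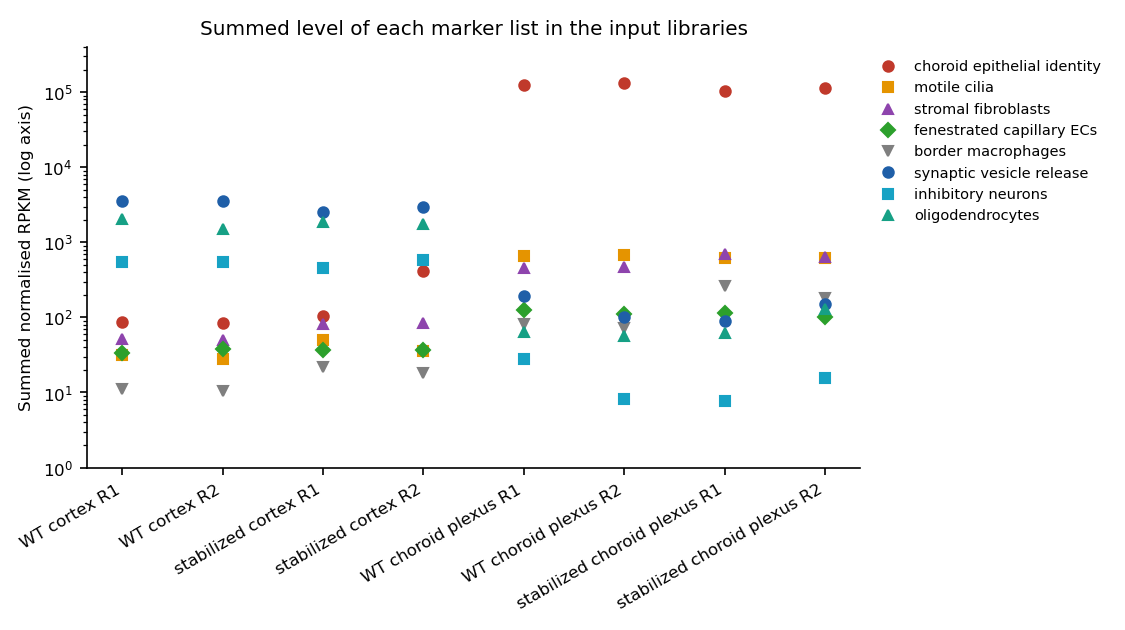
Summed normalized RPKM (y axis, log scale) of 8 marker lists in each of the 8 input libraries (x axis). Synaptic genes reach 3539 and 3604 in the WT cortex libraries against 191 and 99.9 in the WT choroid plexus libraries, and stabilized cortex replicate 2 holds more of the epithelial list than the other cortex libraries.

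Cortical identity was visible in layer and glial genes. Of 14 tested layer genes 11 were called higher in WT cortex and 0 higher in choroid plexus, with a median of -4.27. In the stabilized libraries 10 were called higher in cortex and 0 higher in choroid plexus, with a median of -4.61. Lamp5, a gene of upper layer and interneuron cells, measured 68 and 43.2 RPKM in cortex and 5.16 and 0.91 in choroid plexus, a log2 difference of -4.27 ± 0.67 (SE, adjusted p = 0.000691), and Calb1, the calcium buffer calbindin, 24.2 and 23.2 RPKM against 1.17 and 0.351. Astrocyte genes were called higher in WT cortex in 14 of 17, beside 26.6% of all tested genes, with Sox9 as the member higher in choroid plexus. In the stabilized libraries 12 were called higher in cortex, beside 23.7%. Slc1a2, the glutamate transporter GLT-1, measured 329 and 345 RPKM against 13.6 and 4.07, a log2 difference of -5.26 ± 0.66 (SE, adjusted p = 0.000202). Glul, glutamine synthetase, kept 119 and 138 RPKM in choroid plexus against 618 and 421, a difference of -2.02 in WT. In the stabilized libraries the difference of Glul was -0.91 and was not called. Gja1, the gap junction protein connexin 43, had a WT difference of -3.09. All 15 oligodendrocyte genes were called higher in cortex in both genotypes, with medians of -4.75 and -4.64. Mbp, myelin basic protein, measured 625 and 492 RPKM in cortex against 24.1 and 20 in choroid plexus, a log2 difference of -4.66 ± 0.42 (SE, adjusted p = 3.43e-05).

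Genes known for striatal neurons were also detected in the cortex samples. Of the 8 striatal genes 7 were called higher in WT cortex and 1 in WT choroid plexus, beside 26.6% and 25.9% of all tested genes. In the stabilized libraries the counts were 5 and 1, beside 23.7% and 21.3%. Penk, the enkephalin precursor of striatal neurons, measured 127 and 83.9 RPKM in WT cortex and 2.53 and 2.94 in WT choroid plexus, a log2 difference of -5.26 ± 0.50 (SE, adjusted p = 4.64e-05). The exception was Ppp1r1b, which encodes the phosphatase inhibitor DARPP-32: it measured 277 and 285 RPKM in choroid plexus and 64 and 40.6 in cortex, a log2 difference of 2.43 ± 0.65 (SE, adjusted p = 0.0107) (-0.51 on the deposited TPM scale), and in the stabilized libraries 254 and 239.7 against 10.6 and 59.1. Without WT cortex replicate 2 the WT difference was 2.13 and was no longer called (adjusted p = 0.0745), and with an offset for effective length it was 1.45 (adjusted p = 0.0848).

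Signals that pattern the vasculature were compared between the tissues because Wnt ligands from the parenchyma activate beta-catenin in barrier ECs. Of 10 Wnt ligand genes tested 5 were called higher in WT cortex, 1 higher in choroid plexus and 4 in neither. Wnt7b measured 4.06 and 3.94 RPKM in WT cortex and 0.0446 and 0 in WT choroid plexus, where 1 read in all gives a ratio of 205 (95% counting interval 36.7 to 8118). Wnt7a measured 1.75 and 1.86 RPKM against 0.134 and 0.139, a log2 difference of -3.69 ± 0.45 (SE, adjusted p = 0.00018), which was -1.09 and no longer called with an offset for effective length (adjusted p = 0.356). Wnt5b, the ligand higher in choroid plexus, named after its values were seen, measured 1.59 and 1.78 RPKM there and 0.465 and 0.859 in cortex, a log2 difference of 1.34 ± 0.41 (SE, adjusted p = 0.0203). The call of Wnt5b was lost without WT cortex replicate 1 (0.96) or either WT choroid plexus replicate (1.42 and 1.25), in DESeq2 (1.32, adjusted p = 0.0544) and with library sizes alone (0.88), and its difference was -0.50 on the deposited TPM scale. Ndp, which encodes the non-Wnt ligand Norrin, measured 1.62 and 0.765 RPKM against 0.07 and 0.0543, where 2 reads give a ratio of 19.3 (5.22 to 161). Several receptor genes were higher in whole choroid plexus. Fzd4, the receptor of Norrin, measured 31.8 and 33.8 RPKM in choroid plexus and 1.83 and 1.91 in cortex, a log2 difference of 4.13 ± 0.15 (SE, adjusted p = 9.32e-07). The co-receptors Lrp6 and Lrp5 had log2 differences of 2.43 and 3.65 (-0.36 and 0.86 on the deposited TPM scale, where neither was called higher in choroid plexus), and the Norrin co-activator Tspan12 of -2.73. Ctnnb1, which encodes beta-catenin, measured 162 and 169 RPKM in choroid plexus and 158 and 157 in cortex and was not called (0.07 ± 0.11 (SE, adjusted p = 0.576)), with -0.38 under library sizes alone and -0.98 on the deposited TPM scale. Over the list of Wnt ligands and EC co-receptors 6 genes were called higher in WT choroid plexus and 10 higher in cortex of 20 tested, beside 25.9% and 26.6% of all tested genes, and 7 and 10 in the stabilized libraries, beside 21.3% and 23.7%.

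Of 9 tested secreted Wnt inhibitors 3 were called higher in WT choroid plexus and 3 higher in cortex, beside 25.9% and 26.6% of all tested genes, with 5 higher in choroid plexus when WT cortex replicate 2 was left out, and 3 and 2 in the stabilized libraries. Sostdc1, a secreted antagonist of Wnt and BMP ligands, measured 585 and 539 RPKM in choroid plexus and 0.488 and 0.46 in cortex, a log2 difference of 10.20 ± 0.47 (SE, adjusted p = 1.58e-06). Sfrp1, a soluble relative of the Frizzled receptors, measured 55.5 and 56.8 RPKM against 1.67 and 2.04, a log2 difference of 4.92 ± 0.17 (SE, adjusted p = 7.3e-07). Dkk3, a member of the Dickkopf family, was higher in cortex, at 50.3 and 60.3 RPKM against 4.69 and 5.11, a log2 difference of -3.49 ± 0.35 (SE, adjusted p = 6.46e-05). Frzb, another soluble Frizzled relative, had a difference of -3.11 in WT and -0.13 in the stabilized libraries. Wif1, which binds Wnt ligands, was near the limit of detection in the 4 WT libraries, at 0.23 and 0.297 RPKM in choroid plexus and 0.35 and 0.617 in cortex. In the BMP pathway 7 of 21 genes were called higher in choroid plexus and 7 higher in cortex (3 without WT cortex replicate 2 and 4 without either WT choroid plexus replicate), with the ligand Bmp4 at 11.5 and 13.4 RPKM against 0.207 and 0.976 (log2 difference 4.37). These BMP counts lie near the 25.9% and 26.6% of all tested genes, and in the stabilized libraries they were 8 and 5, with 3 of the cortex calls made in both. Angiogenic ligands and receptors were called higher in choroid plexus in 10 of 16 and higher in cortex in 1, beside 25.9% and 26.6% of all tested genes. In the stabilized libraries the angiogenic counts were 9 and 1, beside 21.3% and 23.7%. Vegfa, which keeps choroid capillaries fenestrated, measured 29.6 and 28.8 RPKM in choroid plexus and 7.64 and 8.51 in cortex, a log2 difference of 1.86 ± 0.11 (SE, adjusted p = 5.16e-06) in WT and of 1.53 in the stabilized libraries, and of 0.24 without a call in WT on the deposited TPM scale. Vegfb measured 55.5 and 50.3 RPKM against 12.5 and 14.1, a difference of 1.99, but 0.20 in the stabilized libraries and -0.63 in WT on the deposited TPM scale.

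Energy metabolism, blood and activity genes differed between the WT tissues in a way that the stabilized libraries shared only in part. Nuclear genes of the respiratory chain were called higher in WT choroid plexus in 48 of 81 and higher in cortex in 1, with a median of 1.69, but in 13 and 1 in the stabilized libraries, with a median of 0.35, and the difference between the genotypes was called for 43. The single member called higher in WT cortex lost its call when WT cortex replicate 1 or either WT choroid plexus replicate was left out. Ribosomal protein genes, a list chosen after the data were seen, were called higher in WT choroid plexus in 62 of 81 with a median of 2.0, and in 4 in the stabilized libraries with a median of 0.22. Rpl22, the gene that carries the RiboTag allele, measured 105 and 107 RPKM in WT choroid plexus and 33.7 and 35.8 in WT cortex, a log2 difference of 1.61 in WT (0.66 with an offset for the length trend) and 0.88 in the stabilized libraries. Glycolysis genes were mostly not called, with 2 higher in WT choroid plexus and 3 higher in cortex of 17, beside 25.9% and 26.6% of all tested genes, and 0 and 3 in the stabilized libraries. Erythrocyte genes were called higher in WT choroid plexus in 3 of 5 and higher in cortex in 0, beside 25.9% and 26.6% of all tested genes. In the stabilized libraries both counts were 0, and the medians were 1.76 in WT and 0.66 there. The members Hbb-bt and Hbb-bs were not called. Hba-a1, which encodes hemoglobin alpha, measured 1.47 and 1.02 RPKM in WT cortex but 44.9 and 29.1 in stabilized cortex, beside 84.7 and 59.1 in WT choroid plexus. It has a near-identical copy, Hba-a2, and whether they shared reads was not tested. Immediate early genes, which neuronal activity induces, were called higher in WT cortex in 12 of 15 with a median of -3.14, and in 6 in the stabilized libraries, where 3 were called higher in choroid plexus. Fos measured 17 and 18.5 RPKM in WT cortex and 3 and 5.93 in stabilized cortex, against 1.19 and 1.79 in WT choroid plexus. The short transcripts of respiratory chain and ribosomal genes fall in the length bins where the WT cortex libraries stood apart. With an offset for the length trend of each library, added after the data were seen, 22 respiratory chain genes were called higher in WT choroid plexus and 11 higher in cortex.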

How the data were processed

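The 4 WT input libraries and, in the same fit, the 4 stabilized input libraries of cerebral cortex and choroid plexus were used, with groups taken from the labels. The authors made single-end RNA-seq reads of amplified cDNA and deposited, for each of 130740 transcripts, the estimated count (expected number of reads, not normalized) and the TPM from Salmon 0.10.2 on mm10/GRCm38 with Ensembl release 92. Here both were added up over the transcripts of each gene, as assigned by GENCODE M21 (GRCm38) (402 transcripts without a gene held 0.0588% to 0.149% of reads), and estimated counts were rounded. Genes of all biotypes passing filterByExpr were fitted with edgeR 4.0.16 (TMM, quasi-likelihood, p-values adjusted by Benjamini-Hochberg, 1 term for each group) in R 4.3.3, and nuclear protein-coding genes are reported. The standard error is the log2 difference divided by the square root of F. On counts simulated for this comparison, where 15411 genes passed the filter, 32.8% of 2-fold, 98.5% of 4-fold and 100% of 8-fold changes were called, with 8 false calls. Those counts held 67, 67 and 66 such changes, no other difference between groups and no length trend. The rates therefore do not cover the length trend of the WT cortex libraries or a comparison in which so many genes differ. Lower bounds are against 3 reads, and counting intervals cover counting error only.

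Because the deposited TPM values were dominated by RNAs outside the nuclear protein-coding genes to a different extent in the WT cortex libraries (protein-coding share 34.2% and 38.3%, against 14.1% to 17.0% elsewhere), levels are given as normalized RPKM from the estimated counts, with 1 transcript length per gene. Genes named are the 12 largest called differences in each direction at 10 TPM or more in both replicates of the higher tissue, the 5 members of each list with the highest mean deposited TPM, members of 7 paralog families at 1 TPM or more, and genes that the study names. Not every gene that the rule names is described, some items are not reported here, and exceptions to a list's direction are named whatever their level. The members and lists were chosen with earlier results of these data known. Alternatives were RLE factors, library sizes alone, TMM without Ttr, DESeq2 1.42.0, no filter, WT libraries alone, a replicate block, length offsets, protein-coding genes alone, limma 3.58.1 on log2 values with pseudocounts of 0.1 and 1, and leaving out each WT library. Tables and figures were made with Python 3.11.15, pandas 2.3.3 and matplotlib 3.10.9.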

Additional observations from a re-analysis of the deposited data

Results flagged for a closer look

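The difference between choroid plexus and cortex differed between the WT and the stabilized libraries, by the interaction term of the edgeR fit at an adjusted p under 0.05, for 43 of the 155 genes named above. Each value is the WT log2 difference minus the stabilized one. Of the choroid epithelium, Ttr (5.90), Slc4a5 (4.26), Wdr86 (5.82), Krt18 (4.01), Cldn3 (6.18), Cldn9 (6.06), Cfap126 (5.76), Sostdc1 (2.08), Igfbp2 (1.40), Igf2 (1.39), Slc4a2 (0.90), Fxyd1 (1.74), Car2 (1.28) and Clu (0.65) were more toward choroid plexus in WT. Slc23a2 (-1.05), Slco1c1 (-0.95), Prom1 (-2.88), Tjp1 (-0.69) and Slc15a2 (-1.29) were more toward cortex in WT. Among vascular genes and signals, Pecam1 (3.99), Plvap (2.59), Igfbp3 (1.47) and Vegfb (1.79) were more toward choroid plexus in WT, and Mfsd2a (-2.09), Cldn5 (-2.11), Spock2 (-1.73) and Frzb (-2.97) more toward cortex.

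Ribosomal protein, globin and other short genes and genes with near-identical copies that were more toward choroid plexus in WT were Rpl10-ps3 (13.93), Rps27rt (11.65), Dynlt1a (9.76), Plac9b (7.70), Cox8b (6.74), Hba-a1 (5.17), Hba-a2 (2.11), Ptgds (1.72) and Rpl22 (0.73). The hindbrain position gene Hoxb3 (9.08) was also more toward choroid plexus. Pagr1a (-9.98) was more toward cortex. The neural, immune and activity genes were Fos (-3.28), Grik2 (-2.01), Vamp2 (-1.62), Glul (-1.10) and Csf1r (-0.71). For Cldn3, Cldn9, Wdr86, Cox8b, Hoxb3 and the 4 genes with near-identical copies the WT cortex libraries held 0 reads, so that the size of the value depends on the fit's prior. The WT cortex libraries differed from stabilized cortex at 3463 genes and the WT choroid plexus libraries from stabilized choroid plexus at 17. Of the 43 genes, 39 differed between the genotypes in cortex, where genotype and library preparation cannot be told apart. In choroid plexus Cldn5 and Spock2 did, higher in the stabilized libraries by 3.12 and 1.81 on the log2 scale, without the replicate number as a block. With that block 0 choroid plexus genes differed between the genotypes. The shift was larger in choroid plexus than in cortex for 7 of the 43, among them Cldn5 (3.12 against 1.0), Prom1 (3.06 against 0.18) and Mfsd2a (2.52 against 0.43), the last 2 at an adjusted p of 0.0722 and 0.0901 in choroid plexus.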

How the results depend on the processing

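Most results kept their direction and their side of the threshold. Of 146 called genes named above, 111 stayed so under each alternative run and 133 never changed sign. Leaving out each WT library in turn, which leaves 1 sample in its group that is assumed to vary like the other groups, gave 3419 to 3708 genes higher in WT choroid plexus and 3513 to 3719 higher in WT cortex, 1248 to 1377 and 1644 to 1831 at 8-fold or more, 2908 to 3126 and 3362 to 3398 in the stabilized libraries, 147 to 155 of the choroid plexus list members and 127 to 130 of the cortex list members, and 388 to 745 and 152 to 250 for the test between the genotypes.

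Deposited TPM in limma, where the WT cortex libraries are on another scale, changed most. With pseudocounts of 1 and 0.1, 766 and 1136 genes were higher in WT choroid plexus and 8267 and 9472 higher in cortex, 127 and 345 were at least 8-fold higher in choroid plexus, and the test between the genotypes gave 120 and 156 toward choroid plexus and 7400 and 8013 toward cortex. With 0.1, 3799 were at least 8-fold higher in cortex. With 1, 87 choroid plexus list members were higher there and 1409 genes in the stabilized libraries. With 1 and 0.1, differences reversed for Atp1b3 (-1.45 and -1.49), Car2 (-0.24 and -0.24), Cst3 (-2.37 and -2.37), Ctnnb1 (-0.98 and -0.99), Dcn (-0.49 and -0.53), Igfbp3 (-0.069 and -0.089), Lef1 (-0.35 and -0.44), Lrp6 (-0.36 and -0.37), Plpp1 (-0.53 and -0.57), Ppp1r1b (-0.51 and -0.52), Ptgds (-0.26 and -0.26), Slc2a1 (-2.61 and -2.79), Slc4a10 (-0.016 and -0.016), Vegfb (-0.63 and -0.66) and Wnt5b (-0.50 and -1.08). With a pseudocount of 1 the calls of Dnah5 (-0.32), Drc1 (0.52), H2-Eb1 (0.53), Hba-a2 (0.93), Hoxb3 (0.26), Hoxb4 (0.078), Id3 (0.61), Lrp5 (0.86), Lyz2 (0.45), Pdgfrb (0.34), Slc12a7 (0.39), Slc23a2 (0.84), Slco1c1 (0.29), Sox9 (0.66) and Vegfa (0.24) were lost. With normalized RPKM and a pseudocount of 1, an alternative chosen after seeing the data, 499 and 727 genes passed 8-fold. The calls of Cspg4 (-0.87), Dnah5 (-0.37), Hoxb3 (0.42), Hoxb4 (0.40), Prom1 (-0.97), Slc15a2 (-0.88) and Wnt5b (0.70) were lost there. The cause was not tested.

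The test between the genotypes also moved, toward cortex in WT, to 756 with library sizes alone, to 634 without a filter on low counts and to 551 with an offset for effective length, and toward choroid plexus in WT, to 1068 without a filter and to 427 with an offset for each library's length trend, added after seeing the data. Library sizes alone reversed Ctnnb1 (-0.38) and Rfx3 (-0.12), the effective length offset Atp1b1 (0.19), Car11 (0.60), Cst3 (-0.39) and Slc2a1 (-0.82), and the length trend offset Cst3 (-0.12) and Ctnnb1 (-0.15).

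Replicate numbers did not pair the tissues (correlation of deviations 0.018 in WT). With the replicate number as a block 3641 and 3718 genes were called in WT, 1275 and 1812 at 8-fold or more, 2956 and 3290 in the stabilized libraries and 567 and 239 between the genotypes. For stabilized against WT choroid plexus, where same-numbered deviations ran opposite (-0.26), 0 genes passed with the block and 4 with crossed numbers, against 17 without. Among simulated 2-fold changes 32.8% were called, under a rule that itself asks for an estimate of at least 2-fold, and 98.5% of 4-fold changes. Unlike the data, the simulated counts held few changed genes and no length trend.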
